A study of Mus musculus with 7 samples.

Results

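The cytosolic ribosomal proteins were 49 genes measured well enough to be fitted, of 6573 fitted genes in all. They were chosen by symbol alone: every probe with 1 annotated symbol that names a protein of the large subunit (Rpl genes and the stalk proteins Rplp0, Rplp1 and Rplp2) or of the small subunit (Rps genes, Rpsa and Fau), without S6 kinases, ribosomal-protein-like genes or pseudogenes. The annotation held 88 such probes for 56 genes. Of these, 68 probes for 49 genes passed the filter, which asked for 3 or more values at 3 h and 2 or more at 10 h, namely 30 large subunit genes on 40 probes and 19 small subunit genes on 28 probes. The genes Rpl10a, Rpl26, Rpl28, Rpl39, Rps18, Rps19 and Rpsa were annotated but had too few values, and 40 of the 49 fitted genes were measured on all 7 arrays.

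Each cytosolic ribosome is built from a small subunit, which reads the mRNA, and a large subunit, which joins the amino acids and threads the new chain through an exit tunnel. Cells make the ribosomal proteins in near equal numbers, and the mRNAs begin with a terminal oligopyrimidine (TOP) tract, a C followed by a run of C and T, through which mTOR signalling and the RNA-binding protein Larp1 set their translation and stability. A large part of the mRNA of dividing cells codes for them, and free ribosomal proteins that cannot be assembled can bind Mdm2, the ligase that degrades p53.

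RNA came from NIH3T3, a line of immortal fibroblasts from mouse embryos, in which Acid1 was overexpressed. Each of 7 arrays carried cDNA of treated fibroblasts in 1 dye and of non-treated fibroblasts in the other, with 4 arrays at 3 h (replicates 1 and 2 with the treated sample in Cy5, replicates 3 and 4 in Cy3) and 3 arrays at 10 h (replicates 1 and 2 in Cy5, replicate 3 in Cy3). The labels do not state the nature of the treatment, the meaning of Acid1, how or in how many clones it was expressed, or whether the non-treated cells carried it too. Protocol text attached to the samples speaks of organs and of control animals, whereas both source names are fibroblasts, and the source names were followed.

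All values are log2 ratios as deposited, read here as treated over non-treated. The labels do not state that direction, so every sign below rests on this assumption, and the reading as Cy5 over Cy3, which turns the sign of replicates 3 and 4 at 3 h and of replicate 3 at 10 h, is given beside the main results. The non-treated RNA was the other channel of each array, so a test at 1 time asks whether the ratio differs from 0 and does not include how controls vary among themselves. The labels do not tie the arrays to separate cultures. The p-values therefore reflect variation among these arrays alone, and that variation may be technical. In bulk RNA, a level that differs in some cells and one that differs in all, or fewer cells and less RNA per cell, cannot be told apart. A ratio holds no expression level, so the fibroblast identity could not be checked by level. Of the fibroblast markers 10 of 11 were fitted, of macrophage and leukocyte markers 2 of 10, of epithelial markers 3 of 8 and of muscle and adipocyte markers 4 of 10, with fitted medians at 10 h of -0.21, 0.09, -0.09 and 0.02.

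Start regions are shown for 6 members because ribosomal protein mRNAs are known for the TOP tract and the array values did not use it. The 6 were taken from members whose annotated start fell on such a run. Whether the others lack it or start elsewhere than annotated was not tested. RefSeq (build GRCm38.p6) gave a promoter window, 250 bases before to 50 bases after the annotated start, for 41 of the 49 genes. In 10 of the 41 (24.4%) the annotated start was a C followed by at least 4 C or T on the transcript strand, against 3.01% of 27025 genes in the table. The lines below give 15 bases on each side of the start, 5′ to 3′ on the transcript strand, with capitals marking the run of C and T that begins at the start. Fau (chr19:6057932-6057961, plus strand) has the longest run, 13 bases, Rps27 (chr3:90213634-90213663, minus strand) and Rps15a (chr7:118116133-118116162, minus strand) had the highest fitted 10 h values of the small subunit, and Rps6 (chr4:86857353-86857382, minus strand) is the protein phosphorylated downstream of mTOR. Rpl35 (chr2:39005117-39005146, minus strand) is a large subunit member with 3 probes, and Rpl38 (chr11:114668565-114668594, plus strand) was among the lowest at 10 h.
Fau: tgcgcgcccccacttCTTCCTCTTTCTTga
Rps27: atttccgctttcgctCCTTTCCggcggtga
Rps15a: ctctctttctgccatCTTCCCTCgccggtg
Rps6: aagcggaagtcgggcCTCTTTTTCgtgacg
Rpl35: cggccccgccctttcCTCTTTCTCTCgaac
Rpl38: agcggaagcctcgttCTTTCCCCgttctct
Other short motifs searched in the same windows were CGGAAG, the core of Ets-family sites, on both strands (29 of 41 members, 70.7%, against 18.8% of all genes), AAGATGG, a YY1 core, on both strands (22% against 7.28%), and CTCTTTC on the transcript strand (22% against 4.6%). The last can overlap the run at the start, as in Fau and Rpl35. At 10 h the fitted median was 0.36 for the 10 genes with a run at the start and 0.32 for those without, 0.44 and 0.28 for genes with and without CGGAAG, 0.32 and 0.37 for AAGATGG, and 0.42 and 0.32 for CTCTTTC. All are matches of letters in a window, described without a test.

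At 10 h the ribosomal protein genes lay above 0 and above the other genes on each of the 3 arrays, in both subunits, while at 3 h the arrays differed in sign. The median of the members was 0.32, 0.48 and 0.36 on the 10 h arrays, where the median of all fitted genes was -0.01, 0.03 and -0.03. Members above 0 numbered 42 of 49, 45 of 49 and 40 of 48. On the 3 h arrays the member median was -0.28, -0.26, -0.44 and 0.22, against -0.08, -0.04, -0.33 and -0.05 over all genes. Members above 0 there numbered 9 of 46, 13 of 49, 14 of 46 and 33 of 46. The share of all genes above 0 is not given for single arrays. In the fit it was 46.2% at 10 h and 39.3% at 3 h. The 3 h arrays thus split, with replicates 1 to 3 low and replicate 4 high. The member medians of the 10 h arrays agreed in sign in both dye orientations under the assumed direction. Over all fitted probes, however, the 10 h array in Cy3 correlated at -0.06 and -0.10 with those in Cy5, which correlated at 0.09 with each other (Pearson).

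**Figure D1:**
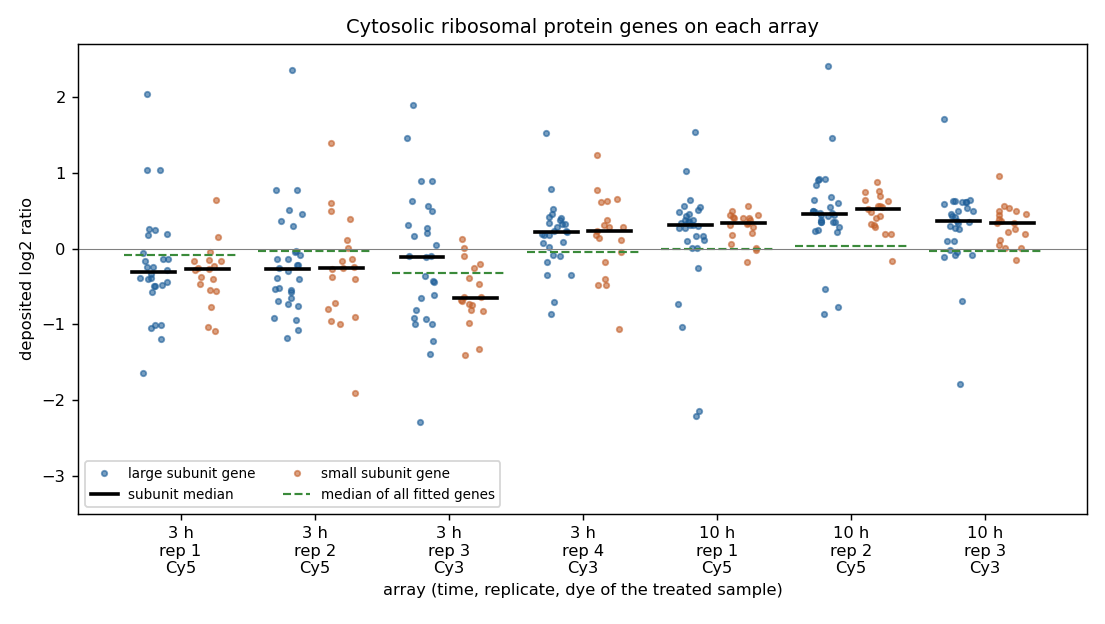
Deposited log2 ratio (vertical axis) of each of the 30 large and 19 small subunit genes on the 7 arrays, with the subunit median as a black bar and the median of all fitted genes as a dashed line. Both subunit medians lie between 0.31 and 0.52 on the 10 h arrays, and on the 3 h arrays between -0.66 and 0.23.

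Taken as the member median minus the median of all genes on the same array, the set stood at 0.39 ± 0.06 (SD, n = 3) at 10 h, with values of 0.33 and 0.44 on the arrays with treated RNA in Cy5 and 0.39 on the array with it in Cy3. At 3 h it stood at -0.06 ± 0.23 (SD, n = 4), with -0.20 and -0.22 in Cy5 and -0.11 and 0.27 in Cy3. The lowest 10 h array was therefore above the highest 3 h array, by less than the spread among the 3 h arrays. Read as Cy5 over Cy3, the 10 h replicate in Cy3 turned to -0.39, and the means became 0.13 ± 0.45 at 10 h and -0.15 ± 0.17 at 3 h.

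The medians of the subunits differed by at most 0.06 on 6 of the 7 arrays. Relative to all genes, the large subunit median was 0.32, 0.43 and 0.39 on the 10 h arrays and the small subunit median 0.35, 0.48 and 0.37. The large minus small difference was -0.03, -0.06 and 0.02 there, a mean of -0.02 ± 0.04 (SD, n = 3), so its sign changed between arrays. At 3 h the difference was -0.03, -0.02 and -0.01 on replicates 1, 2 and 4. On 3 h replicate 3 it was 0.55, where the large subunit median stood at 0.22 and the small subunit median at -0.33 relative to all genes. The 3 h mean was 0.12 ± 0.29 (SD, n = 4) with that array, and the array was 1 of those read in Cy3.

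Each probe of the table was fitted with limma, with 1 mean per time and a dye term. No member probe passed an adjusted p of 0.05 (Benjamini-Hochberg over 11559 probes) at 3 h, at 10 h or in the difference, 0 of 68 each time, and the share of all probes passing was 0% in each. The lowest adjusted p among members from limma was 0.255 at 3 h, 1 at 10 h and 0.569 for the difference. At an unadjusted p under 0.05, 4 member probes were found at 3 h, where 13.6% of all probes were, 0 at 10 h, where 3.88% were, and 13 for the difference, where 8.11% were. The 4 at 3 h were 1 above 0 (3.13% of all probes) and 3 below (10.5%), and the 0 at 10 h stand beside 1.56% of all probes above and 2.32% below. Of the 13, 12 were higher at 10 h (5.37% of all probes) and 1 was lower (2.74%). The shift of the set at 10 h is thus described by its median and its counts, and no single gene of it passed the test.

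The fitted values of genes, means over the probes of a gene, had a median of 0.36 at 10 h against -0.03 over all genes, and 45 of 49 members lay above 0, where 46.2% of all genes did. The large subunit had a median of 0.42 with 26 of 30 genes above 0, and the small subunit 0.32 with 19 of 19. The fitted difference between subunits, 0.10, had the opposite sign to the mean over single arrays and fell to -0.006 when the 10 h replicate in Cy3 was left out or when 1 probe was taken for each gene. At 3 h the members' median was -0.19 against -0.13 over all genes, with 11 of 49 above 0 (39.3% of all genes), 9 of 30 in the large and 2 of 19 in the small subunit. Without replicate 4 of 3 h the median there was -0.41, or -0.23 relative to all genes, and without replicate 2 it was 0.001 relative to all genes. For 10 h minus 3 h the median was 0.65 against 0.11, and 41 of 49 lay above 0 (56.9% of all genes). Read as Cy5 over Cy3 these medians were 0.17 at 10 h, -0.14 at 3 h and 0.29 for the difference, with 42, 16 and 37 of 49 genes above 0. Relative to all genes in the same reading the medians were 0.144, -0.168 and 0.325. The share of all genes with a fitted value above 0 is not given for that reading. In that reading Fau, Rpl5, Rpl7a, Rpl27a, Rpl32, Rpl38, Rplp0, Rps16 and Rps26 changed sign at 10 h, and Rpl7, Rpl24, Rpl36a, Rpl38, Rplp0, Rps4x, Rps12, Rps16, Rps21 and Rps26 in the difference.

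Counted over single arrays, 37 of 49 members were above 0 on every measured 10 h array, where 15.5% of all genes were. They made up 21 of 30 large and 16 of 19 small subunit genes. Read as Cy5 over Cy3, 3 of 49 were (Rpl14, Rpl27a and Rps12), where 16.1% of all genes were, so this count rests on the assumed direction. Only Rpl13 was below 0 on all 10 h arrays (16.3% of all genes), and in the Cy5 over Cy3 reading only Rps26 (14.4%). At 3 h the members Rpl7, Rpl23, Rps14, Rps21 and Rps29 were below 0 on every array, 5 of 49 where 15% of all genes were, and Rpl5, Rpl13, Rpl32 and Rplp0 were above 0 on every measured array, 4 of 49 where 6.85% of all genes were. In the Cy5 over Cy3 reading, 7 of 49 were below 0 on every 3 h array (6.82% of all genes) and 1 of 49 above (10.7%). In 19 of 49 members every 10 h value was above every 3 h value (8.72% of all genes), and in 1, Rpl13, every 10 h value was below every 3 h value (4.58%). In the Cy5 over Cy3 reading these counts were 1 of 49, Rpl8 (3.1% of all genes), and 1 of 49, Rps16 (5.49%), so each lack of overlap between the times given below holds for the assumed direction alone.

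**Figure D2:**
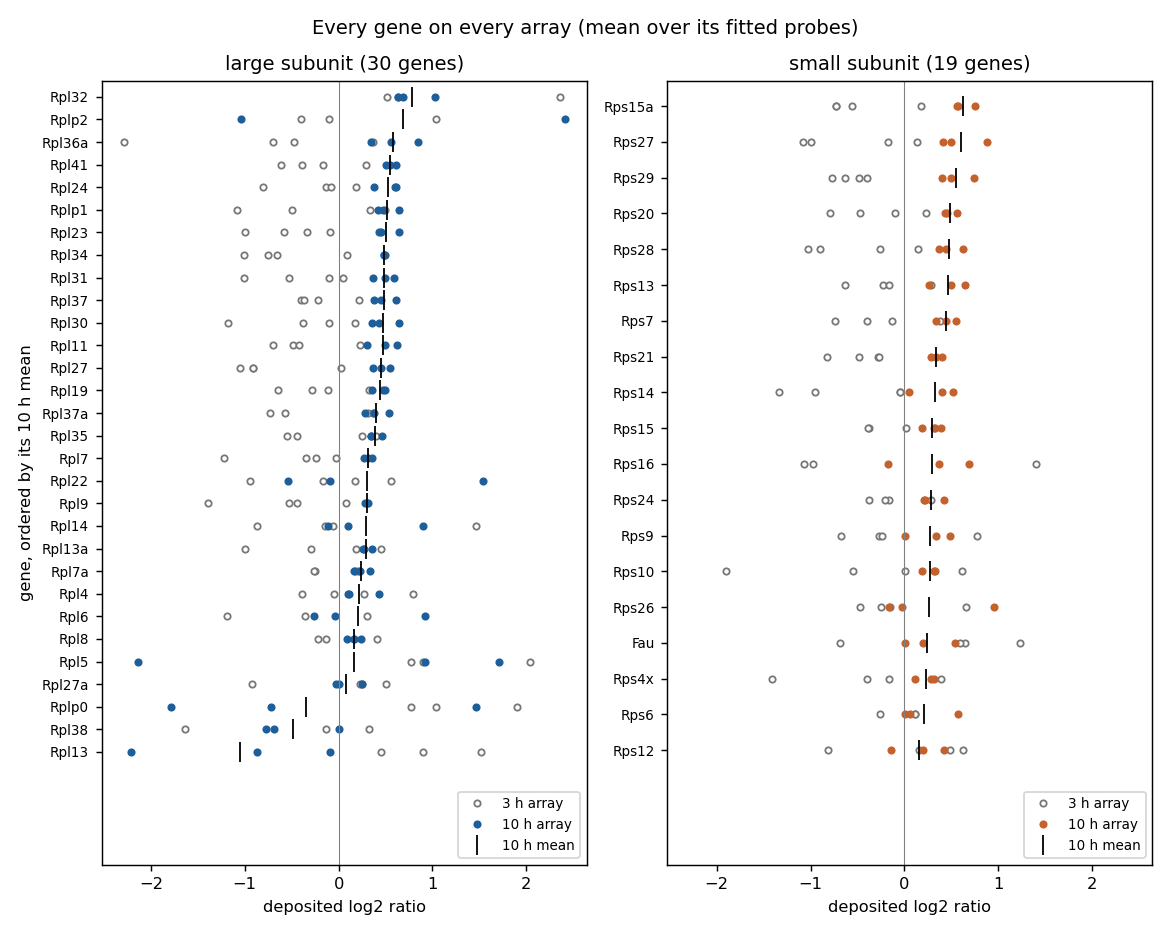
Deposited log2 ratio (horizontal axis) of each large subunit gene (left) and small subunit gene (right) on every array, ordered by the 10 h mean. Open circles are the 4 arrays at 3 h, filled circles the 3 arrays at 10 h and black ticks the 10 h mean, and 37 of the 49 genes have all filled circles above 0 under the assumed direction.

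The 10 h values of many members lay close together. The SD over the 3 arrays at 10 h was under 0.15 in 25 of the 48 members measured on all of them, all 25 with a mean between 0.17 and 0.63, and 22.7% of all genes had an SD that small (12.2% with a mean above 0). The median SD of a member was 0.14 at 10 h and 0.54 at 3 h, against 0.34 and 0.72 over all genes. Read as Cy5 over Cy3, 2 of 48 members, Rpl27a and Rps12, had an SD under 0.15 at 10 h (20.8% of all genes), and the median SD of a member there was 0.53 against 0.35 over all genes. Rpl34 was the closest, at 0.48, 0.49 and 0.49 on the 10 h arrays, and Rpl9 stood at 0.32, 0.29 and 0.30. At 3 h the same genes ran from -1.004 to 0.09 and from -1.39 to 0.08.

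Among the small subunit, the highest fitted 10 h values with values on all arrays of that time belonged to Rps27, Rps15a, Rps28 and Rps20. Rps27, a zinc finger protein of the subunit, stood at -1.09, -0.99, 0.13 and -0.18 on the 3 h arrays and at 0.41, 0.88 and 0.50 on the 10 h arrays. Every 10 h array was above every 3 h array, and its fitted difference of 1.22 (SE 0.42) had an adjusted p of 0.577 from limma. Rps15a stood at -0.56, -0.72, -0.73 and 0.18 at 3 h and at 0.56, 0.75 and 0.57 at 10 h, again without overlap, and its fitted difference was 1.12 (SE 0.40, adjusted p 0.581 from limma). Rps28, which lines the channel through which mRNA leaves the ribosome, stood at -1.03, -0.90, -0.26 and 0.14 at 3 h and at 0.37, 0.63 and 0.44 at 10 h. Rps20, a head protein that is ubiquitylated when ribosomes collide, stood at -0.47, -0.79, -0.10 and 0.23 at 3 h and at 0.44, 0.56 and 0.46 at 10 h. In both, the 3 h arrays in Cy5 were lower than those in Cy3, and no 3 h value reached the 10 h values.

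Rps29, a zinc-binding protein of the head, had the widest gap between the times under the assumed direction. Its 3 h values were -0.77, -0.40, -0.63 and -0.48 and its 10 h values 0.41, 0.74 and 0.49, so that the lowest 10 h value was 0.80 above the highest 3 h value. Its mean was -0.57 ± 0.17 (SD, n = 4) at 3 h and 0.55 ± 0.17 (SD, n = 3) at 10 h, and the adjusted p of the difference was 0.569 from limma. In 3 of its 7 values it held a coarse ratio of small whole numbers, a feature described further on, as did 3 of the 27 values of Rps21. Rps21 had the next widest gap, 0.55, with a mean over its 4 probes of -0.28, -0.27, -0.82 and -0.48 at 3 h and 0.28, 0.41 and 0.34 at 10 h. Both genes were below 0 on all 3 h arrays and above 0 on all 10 h arrays, as were Rpl7, Rpl23 and Rps14. In Rps21 and Rps14 this held for the mean over the probes. A probe of Rps21 read -0.20, -0.20 and -0.12 at 10 h, and a probe of Rps14 read -0.13 on 10 h replicate 3. Read as Cy5 over Cy3, Rps29 stood at -0.77, -0.40, 0.63 and 0.48 at 3 h and at 0.41, 0.74 and -0.49 at 10 h, which overlap, and the fitted difference was 0.28 for Rps29 and -0.07 for Rps21.

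The lowest small subunit genes at 10 h were Rps12, Rps16, Rps4x and Rps6, all with fitted values above 0 (0.08 to 0.20). Rps12 stood at 0.42, 0.19 and -0.15 at 10 h and at 0.15, 0.49, -0.81 and 0.62 at 3 h, and the times overlapped. Rps4x, encoded on the X chromosome, stood at 0.32, 0.28 and 0.11 at 10 h and ran from -1.41 to 0.39 at 3 h. Rps6, the substrate of the S6 kinases, had a mean of 0.21 ± 0.31 (SD, n = 3) at 10 h and its probes differed in sign, with fitted values of 0.44 and -0.04.

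Of the members that line the decoding site and the mRNA channel, 6 of 12 listed symbols were fitted (Rps14, Rps15, Rps26, Rps27, Rps28 and Fau). All 6 had fitted values above 0 at 10 h (0.24 to 0.69) and 5 of 6 below 0 at 3 h. The same held for 19 of 19 and 17 of 19 genes of the whole small subunit, so the group did not differ from its subunit in these counts. Of all genes, 46.2% were above 0 at 10 h and 39.3% at 3 h. Fau, whose product is a ubiquitin-like protein fused to the ribosomal protein Rps30, went the other way at 3 h, with 0.64, 0.60, -0.69 and 1.23, and stood at 0.01, 0.20 and 0.53 at 10 h. Its times overlapped, and its fitted difference of -0.21 (SE 0.54) was the lowest of the small subunit, with an adjusted p of 0.942 from limma. Rps14, a platform protein whose loss marks a form of myelodysplastic syndrome, stood at -0.05, -0.96, -1.33 and -0.05 at 3 h and at 0.41, 0.52 and 0.04 at 10 h. Rps15, in the head near the decoding site, had means of -0.11 ± 0.34 (SD, n = 4) and 0.30 ± 0.10 (SD, n = 3), and the times overlapped.

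Among the large subunit, Rplp1, Rpl32, Rpl30 and Rpl41 had the highest fitted 10 h values with values on all 10 h arrays (0.57 to 0.62). Rpl41, the shortest ribosomal protein, stood at -0.17, -0.39, -0.61 and 0.29 at 3 h and at 0.50, 0.55 and 0.61 at 10 h. Rpl30 stood at -0.38, -1.18, -0.10 and 0.17 at 3 h and at 0.44, 0.35 and 0.65 at 10 h. In both genes 3 of the 4 arrays at 3 h were below 0 and the times did not overlap.

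The largest fitted differences of the large subunit were those of Rpl27, Rpl36a, Rpl34 and Rpl23, from 0.99 to 1.21, with adjusted p from 0.577 to 0.624 in limma. Read as Cy5 over Cy3 they were 0.56, -0.28, 0.51 and 0.21, so that of Rpl36a changed sign. Rpl27 stood at -1.05, -0.91, -0.92 and 0.02 at 3 h and at 0.55, 0.45 and 0.36 at 10 h. Rpl34 stood at -1.004, -0.76, -0.66 and 0.09 at 3 h. In each of them the 3 h array of replicate 4 was the highest, and yet it was below all 10 h values. Rpl36a, the other member on the X chromosome that was fitted, stood at -0.48, 0.36, -2.29 and -0.70 at 3 h and at 0.56, 0.85 and 0.35 at 10 h. Its times overlapped, and 1 array, replicate 3, held the value of -2.29.

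The stalk of the large subunit recruits elongation factors and is made of Rplp0, Rplp1 and Rplp2, and its members were not alike. Rplp1 stood at -0.50, -1.08, 0.50 and 0.33 at 3 h and at 0.64, 0.47 and 0.42 at 10 h. Rplp0, the scaffold of the stalk, stood at 1.04, 0.77 and 1.90 on the 3 measured arrays at 3 h and at -0.73, 1.46 and -1.78 at 10 h. Rplp2 stood at 1.04, -0.40 and -0.10 at 3 h and at -1.04 and 2.41 on the 2 measured arrays at 10 h. The 10 h arrays of Rplp0 and Rplp2 differed by more than 3 on the log2 scale, while those of Rplp1 lay between 0.42 and 0.64. Each of the genes had 1 fitted probe. Coarse ratios of small whole numbers made up 3 of the 6 values of Rplp0, 5 of the 5 of Rplp2 and 0 of the 7 of Rplp1.

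Rpl5 and Rpl11 travel with the small rRNA of the large subunit and, with Rpl23 and Rps7, can bind Mdm2. Rpl11 stood at -0.49, -0.70, -0.43 and 0.23 at 3 h and at 0.30, 0.49 and 0.62 at 10 h. Rpl23 stood at -0.34, -0.58, -0.996 and -0.09 at 3 h and at 0.45, 0.64 and 0.44 at 10 h. Rps7 stood at -0.40, -0.13, -0.74 and 0.38 at 3 h and at 0.44, 0.55 and 0.34 at 10 h. The times did not overlap in Rpl11 and Rpl23 and overlapped in Rps7 through replicate 4 of 3 h. Rpl5 stood apart from its partner Rpl11, at 2.04, 0.77 and 0.90 on the measured 3 h arrays and at -2.14, 0.92 and 1.71 at 10 h. Of its 6 values, 5 were coarse ratios of small whole numbers.

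Around the polypeptide exit tunnel, 5 of 10 listed members were fitted, Rpl4, Rpl19, Rpl22, Rpl31 and Rpl35. All 5 had fitted values above 0 at 10 h (0.28 to 0.57) and higher at 10 h than at 3 h. In the whole large subunit 26 of 30 genes were above 0 at 10 h and 24 of 30 were higher than at 3 h. The shares of all genes were 46.2% and 56.9%. Rpl22 counted by the mean of 2 probes, with fitted 10 h values of 1.30 and -0.65. The latter probe was lower at 10 h than at 3 h (fitted difference -0.32). Rpl31, at the rim of the exit, stood at -1.01, -0.53, 0.05 and -0.10 at 3 h and at 0.36, 0.50 and 0.59 at 10 h, without overlap. Rpl4, a loop of which lines the tunnel, stood at -0.39, -0.04, 0.27 and 0.79 at 3 h and at 0.11, 0.44 and 0.11 at 10 h, with overlap.

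Rpl19, also near the exit, stood at 0.35, 0.48 and 0.50 at 10 h, all above its 3 h values of -0.28, -0.65, -0.11 and 0.32. Rpl35, which docks factors at the exit, had means of -0.09 ± 0.48 (SD, n = 4) at 3 h and 0.38 ± 0.07 (SD, n = 3) at 10 h.

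Most other members gave 10 h values in the same range. Rpl24, which bridges the subunits, stood at 0.38, 0.60 and 0.62 at 10 h and at -0.13, -0.09, -0.81 and 0.19 at 3 h, and Rpl37, a zinc finger protein, at 0.38, 0.45 and 0.61 and at -0.40, -0.22, -0.37 and 0.22. In both, the times did not overlap. At 10 h Rpl13a, which also takes part in silencing inflammatory mRNAs, had a mean of 0.29 ± 0.05, Rpl7a of 0.24 ± 0.09, Rpl8 of 0.17 ± 0.07, Rps13 of 0.47 ± 0.19, Rps24 of 0.28 ± 0.12, Rps9 of 0.28 ± 0.24 and Rps10, which is ubiquitylated at collided ribosomes, of 0.27 ± 0.08 (SD, n = 3 each). The times overlapped in all 7 of these genes. The value of Rps24 is a mean over 2 probes that differed. At 10 h 1 of them read 0.60, 0.40 and 0.57, and the other -0.19, 0.45 and -0.13. Wider spreads at 10 h (SD, n = 3 each) were seen in Rpl6 (0.21 ± 0.63), Rpl14 (0.30 ± 0.53), Rps16 (0.29 ± 0.44) and Rps26 (0.26 ± 0.61). In each of them at least 1 array at 10 h was below 0. In Rpl14 and Rps26 the values below 0 came from 1 probe each. That probe read -0.175, 1.31 and -0.53 in Rpl14, and -0.88, -1.14 and 1.63 in Rps26. All 3 of the latter were coarse ratios of small whole numbers. The other probe of Rpl14 read 0.31 to 0.49, and the other probes of Rps26 read 0.15 to 0.69.

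The 4 large subunit members below 0 in the fit at 10 h were Rpl13, Rplp0, Rpl38 and Rpl27a. Rpl13 was the 1 member that ran against the set throughout, at 0.45, 0.90 and 1.52 on the measured 3 h arrays and at -2.21, -0.87 and -0.09 at 10 h. Its fitted difference was -1.64 (SE 0.57), with an adjusted p of 0.581 from limma. Rpl38, whose loss in mice disturbs the axial skeleton, stood at -1.64, -0.14 and 0.33 at 3 h and at 0.01, -0.77 and -0.69 at 10 h. Rpl27a stood at 0.00, 0.25 and -0.02 at 10 h and its fitted value there, -0.007, turned to 0.02 once the median of each array was taken off. The high end of the 3 h values held Rpl32, at 2.36, 0.63 and 0.52 on the measured 3 h arrays and at 1.03, 0.69 and 0.63 at 10 h, with the lowest adjusted p among members at 3 h (0.255 from limma, fitted value 1.34).

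**Figure D3:**
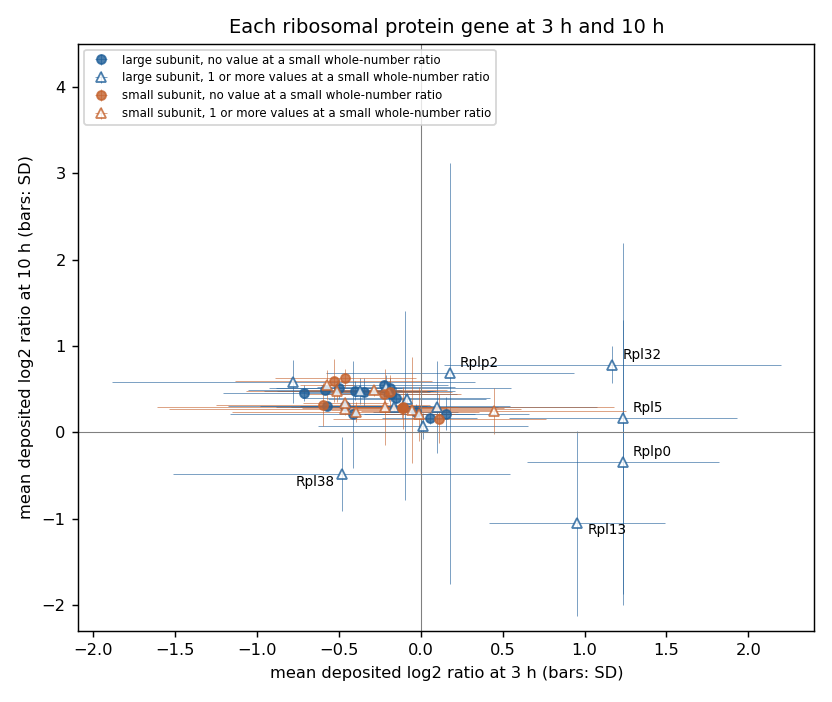
Mean log2 ratio at 10 h (vertical axis) against the mean at 3 h (horizontal axis) for each of the 49 genes, with SD bars over the measured arrays. Filled circles are genes without a value at a ratio of small whole numbers and open triangles those with at least 1; all 24 circles lie above 0 at 10 h, and Rpl13, Rplp0 and Rpl38, which lie lowest, are triangles.

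The members that stood apart held coarse values, and so did some that did not. Once a constant was subtracted from each array, many deposited values fell on the log2 of small ratios such as 1:1, with both numbers at most 8 (tolerance 0.0016). Among member values this held for 15.4% to 23.4% on the 3 h arrays and 5.88% to 10.4% on the 10 h arrays, against 45.8% to 55.7% and 8.05% to 9.72% over all fitted values. The members with no such value were 24 genes. All 24 were above 0 in the fit at 10 h (46.2% of all genes), with a median of 0.45, and 3 of 24 were above 0 at 3 h (39.3% of all genes). These shares are over all fitted genes, with or without such values. The 25 members with such a value had a 10 h median of 0.32, with 21 of 25 above 0, and they included Rpl13 (3 of 6 values), Rplp0 (3 of 6), Rpl38 (3 of 6), Rpl5 (5 of 6), Rplp2 (5 of 5) and Rpl32 (4 of 6), but also Rps29 (3 of 7), which lay with the set. Their part in the deviations was not tested. The median 10 h SD was 0.11 in the 24 genes and 0.22 in the 25. This split was made after the values were seen.

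Several probes of a gene offered a second look at the same mRNA on the same arrays. At 10 h the fitted values of the probes had 1 sign in 11 of 14 genes with more than 1 fitted probe, with a median range of 0.15, and at 3 h in 9 of 14, with a median range of 0.23. The probes of Rpl37a gave 0.51 and 0.51 at 10 h, the 3 probes of Rpl8, which sits near the catalytic centre, 0.18 to 0.23, and the probes of Rpl11 0.51 and 0.56. The 3 probes of Rpl35 gave 0.40 to 0.48 at 10 h but -1.02 to 0.30 at 3 h. Rpl22 was the gene with the widest disagreement at 10 h, with 1.30 for 1 probe, which read 3.77 on replicate 1, and -0.65 for the other, which read -0.68, -0.74 and -0.64. In Rps21, 3 probes gave 0.35 to 0.69 and the other -0.26. The probe that disagreed in Rps21 and both probes of Rpl22 held values at ratios of small whole numbers. In the 6 genes where no probe held one, all 6 had 1 sign at 10 h with a median range of 0.07. The widest range among these 6 was 0.42, in Rps24, with fitted values of 0.10 and 0.52.

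**Figure D4:**
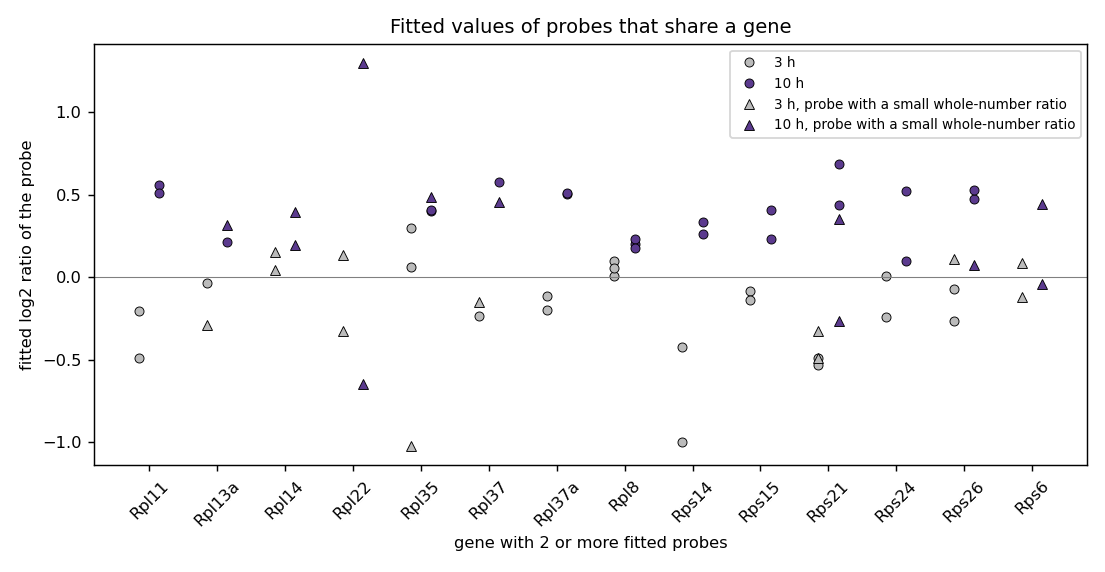
Fitted log2 ratio (vertical axis) of every probe of the 14 genes with more than 1 fitted probe, grey for 3 h and purple for 10 h, with triangles for probes that held a value at a ratio of small whole numbers. Purple circles all lie above 0, from 0.10 to 0.69, and the purple points below 0 are triangles of Rpl22, Rps21 and Rps6.

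Other genes of the pathway had smaller list medians at 10 h, and the differences between lists were not tested. Mitochondrial ribosomal proteins, encoded by other genes and built into a separate ribosome, stood at 0.10 ± 0.07 (SD, n = 3 arrays) relative to all genes at 10 h, with 30 of 46 above 0, and on each array below both cytosolic subunits. The list of other TOP mRNAs stood at 0.08 ± 0.08 (9 of 13 above 0). It held elongation and initiation factors but also genes such as Tpt1, Pabpc1 and Hnrnpa1. Whether these mRNAs begin with the tract was not examined here. Ribosome biogenesis genes stood at -0.03 ± 0.02 (15 of 33), mTOR pathway and Myc network genes at -0.03 ± 0.02 (5 of 12) and p53 pathway genes at -0.02 ± 0.30 (3 of 7). The counts are of fitted values, and 46.2% of all genes were above 0 at 10 h. They hold for the assumed direction, and the Cy5 over Cy3 reading is not given for these lists. The mTOR and Myc list also held Pdk1, a pyruvate dehydrogenase kinase. At 3 h the same lists stood at -0.004 ± 0.16, 0.13 ± 0.22, 0.23 ± 0.11, 0.16 ± 0.39 and 0.04 ± 0.33 (SD, n = 4 arrays). In none of them did a probe pass the adjusted threshold in any comparison, and the share of all probes passing was 0%.

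Single genes of these lists varied more than the list medians. In the TOP list, Btf3, a subunit of the nascent chain complex, stood at -1.13 ± 1.24 at 3 h (SD, n = 3) and 0.04 ± 0.11 at 10 h (SD, n = 3), and the initiation factor subunit Eif3f at 0.68 ± 0.74 and -0.58 ± 0.57 (SD, n = 3 each). Among biogenesis genes Nifk, a nucleolar protein, went from 1.60 ± 1.13 to -0.90 ± 0.92 (SD, n = 3 each), with the lowest p of its list for the difference (unadjusted 0.018 and adjusted 0.569 from limma). Over their probes, Eif4e, the cap-binding protein, stood at 1.0 ± 0.68 at 3 h (SD, n = 4) and 0.14 ± 0.11 at 10 h (SD, n = 3), and its inhibitor Eif4ebp1 at 0.19 ± 1.27 and 0.10 ± 1.03. The probe of Eif4ebp1 with the lowest p at 3 h gave -0.64 ± 0.13 there (SD, n = 3), opposite in sign to the mean over the probes. Btg2, an antiproliferative p53 target, stood at -1.05 ± 0.58 at 3 h (SD, n = 4) on 1 probe and -0.64 ± 0.45 on the other, with adjusted p of 0.213 and 0.354 from limma. Mrpl33, a mitochondrial ribosomal protein, ran like the cytosolic set, from -0.44 ± 0.50 at 3 h (SD, n = 4) to 0.65 ± 0.10 at 10 h (SD, n = 3), with an adjusted p of 0.581 from limma for the difference.

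**Figure D5:**
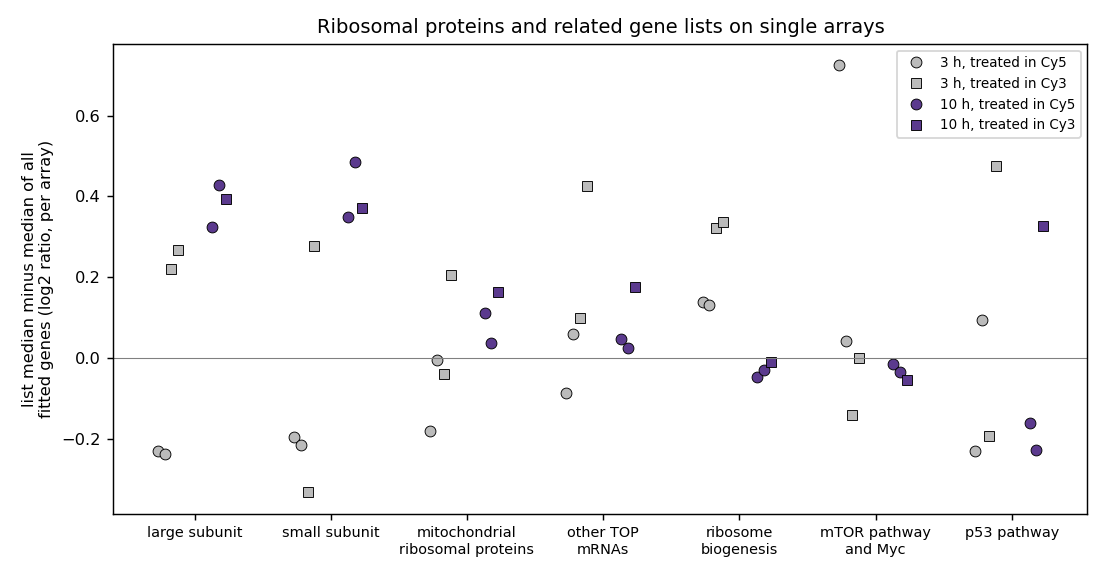
Median of each gene list minus the median of all fitted genes on the same array (vertical axis, log2 ratio), with 1 point for each array, grey for 3 h and purple for 10 h, circles for treated RNA in Cy5 and squares for treated RNA in Cy3. The 10 h points of both cytosolic subunits lie between 0.32 and 0.48, and those of the mitochondrial ribosomal proteins between 0.04 and 0.17.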

How the data were processed

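Treated and non-treated cDNA, each labelled with 1 of the dyes Cy3 and Cy5, were hybridised together, per the labels' protocols. The authors deposited 1 table with log2 ratios of 20355 probes and 7 arrays. Its base 2 follows from where the values cluster, and its direction is an assumption. The software, the background correction and any normalization before deposit were not given in the sources used here. Arrays limit the precision through their number, and the depth of signal is unknown.

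Probes were named through the platform annotation (14030 with 1 symbol, 5 with several, 6320 with none). Of the 88 member probes, 87 identifiers were found in the RefSeq gene table, and 0 symbols changed. Values over 15 in size were taken as not measured, which affected at most 5 member values on an array. No centring was added. limma 3.58.1 in R 4.3.3 was fitted to the 11559 probes with at least 3 values at 3 h and 2 at 10 h, with a mean for each time and a dye term. Tests were two-sided, and p was adjusted by Benjamini-Hochberg over all probes and called under 0.05. The fit was checked on simulated data. A gene is the mean over its fitted probes.

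Named members were the 4 highest and lowest fitted genes of each subunit and comparison with all values, members of role lists (decoding site, stalk, Mdm2 binders, exit tunnel, X chromosome) and genes with several probes. Genes that never or always overlapped between times, and those that stood apart, were named after their values were seen. Other lists were described by the 2 lowest p in each comparison, of which a selection is printed. Members and lists were chosen with earlier results of these data known. Arrays of 1 time were compared with each other, and at most 0.316% of values were identical in any pair. Pearson correlations over fitted probes, as deposited, were 0.054 to 0.237 among the 3 h arrays. At 10 h they were 0.092 between replicates 1 and 2, and -0.056 and -0.097 between replicate 3 and these. With 3 h replicates 1 to 4, 10 h replicate 3 correlated at -0.01, 0.002, 0.064 and 0.059. Replicate numbers are shared between times without any label saying that they mark a common culture, and deviations of same-numbered arrays correlated at 0.03, 0.03 and 0.09 over 6369 probes, so they were not taken as pairs. Alternatives were the Cy5 over Cy3 reading, no dye term, centring, extreme values kept, stricter and no filters, separate fits, 1 probe for each gene, array weights, each array left out and the replicate block.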

Additional observations from a re-analysis of the deposited data

Results flagged for a closer look

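In 2 of 45 groups of 4 values at 3 h, 1 value lay further from the rest than Dixon's critical value of 0.829 for the gap over the range, and chance gives about 1 in 20. Rpl27 stood at 0.024 on replicate 4 of 3 h, while its other 3 values ran from -1.05 to -0.91 (gap over range 0.873). The large minus small subunit median was 0.55 on replicate 3 of 3 h, while the other arrays of that time ran from -0.03 to -0.01 (gap over range 0.961).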

How the results depend on the processing

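No member probe passed the adjusted threshold of limma under any setting run. The 10 h median of the members (0.36) stayed above 0 throughout and was 0.174 in the Cy5 over Cy3 reading, 0.446 with values on all 7 arrays, 0.442 with 1 probe for each gene and 0.446 in members without values at small whole-number ratios, a choice made after seeing the data. With single arrays left out it ran from 0.311 to 0.523, the highest without 10 h replicate 3. The large minus small difference at 10 h (0.102) was -0.102 in the Cy5 over Cy3 reading, 0.053 with array weights, 0.062 with extreme values kept, 0.039 without a filter, 0.052 with values on all 7 arrays, -0.006 with 1 probe for each gene and 0.178 without small whole-number ratios, and -0.006 to 0.149 with single arrays left out, so it kept no sign. The 10 h minus 3 h median (0.652) was 0.287 in the Cy5 over Cy3 reading and 0.545 to 0.780 with single arrays left out. The 3 h median (-0.193) was -0.135 in the Cy5 over Cy3 reading. With single arrays left out it ran from -0.412 (without 3 h replicate 4) to -0.151, and relative to all genes from -0.226 to 0.001. The cause was not tested. With the replicate block in place of the dye term, which the check of pairing does not support, 0 member probes passed and the median difference was 0.830, with 39 of 42 genes above 0 and a large minus small difference of -0.062. In the Cy5 over Cy3 reading 15, 9 and 10 of 49 genes changed sign at 3 h, at 10 h and in the difference. With the array medians taken off, Rpl7a and Rps16 at 3 h, Rpl27a at 10 h and Rpl38 in the difference did, all with sizes under 0.04. The number of arrays, 4 and 3, and the coarse values at 3 h limit what single genes can show.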
